A study of Mus musculus with 48 samples.

Results

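Dorsal mouse skin was compared between catagen, the stage in which the hair follicle regresses, and refractory telogen, the early part of the second resting phase. The comparison used the 2 libraries of each stage and was made across all genes of the table: of 46983 genes, 16414 reached 0.5 FPKM (fragments per kilobase of transcript, scaled to the size of the library) in at least 2 of these 4 libraries and were tested. The 4 libraries are part of a series of 48, of which 43 came from whole skin of the dorsum, the ventrum and the chin at 6 hair cycle stages, and 14 of these 43 were dorsal. All were made from total RNA of whole C57BL/6 skin by SMART-seq2, a method that amplifies full-length cDNA, and the labels name no transgene and no treatment. The labels of these libraries give neither age nor sex, nor do they say whether the 2 libraries of a stage came from separate mice. The p-values therefore measure only the spread between libraries of the same domain and stage, pooled over all 43, which may be technical. The study asked which molecular differences go with the longer rest of dorsal follicles relative to those of the chin and ventrum, and the step from catagen to refractory telogen is the one in which dorsal skin enters that rest.

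In anagen the matrix cells of the hair bulb divide and differentiate into the hair shaft and the inner root sheath, while melanocytes of the bulb pass pigment to the shaft. In catagen division stops, the lower follicle is lost by cell death, and bulb melanocytes disappear. In telogen a small follicle with its bulge stem cells, its secondary germ and its dermal papilla remains, and in its refractory part BMP signals from follicle and surrounding skin hold the stem cells at rest while WNT signals are low. In bulk skin fewer cells of a type and less RNA per cell cannot be told apart, which holds for each level given here.

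The 2 catagen libraries stood apart from the other 41 before any comparison was made. Depth, read from the smallest steps between low FPKM values, was about 10400000 and 10200000 fragments in catagen and about 20500000 and 27000000 in refractory telogen, the 2 deepest libraries of the table. The deviation of each gene from its mean over the table correlated with the GC content of its transcript at -0.41 in both catagen libraries, at -0.02 and -0.01 in the refractory libraries and between -0.24 and 0.21 in all libraries other than catagen. The median change from catagen to refractory telogen accordingly moved with GC content, from -0.34 on the log2(FPKM + 1) scale among genes under 42% GC to 0.53 among genes at 58% or more. Counts of the gene lists are therefore also given after a GC correction, in which the smooth curve of a library's deviations on GC content was taken off. Whether the GC deviation arose in the skin or in the libraries was not tested. Styx, Rps12, Rps27a-ps2, Gm11175 and Mir6236, which were at 5 FPKM or more in all 41 other libraries, were listed at 0 in both catagen libraries, and these 5 genes were chosen after their values were seen.

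**Figure D1:**
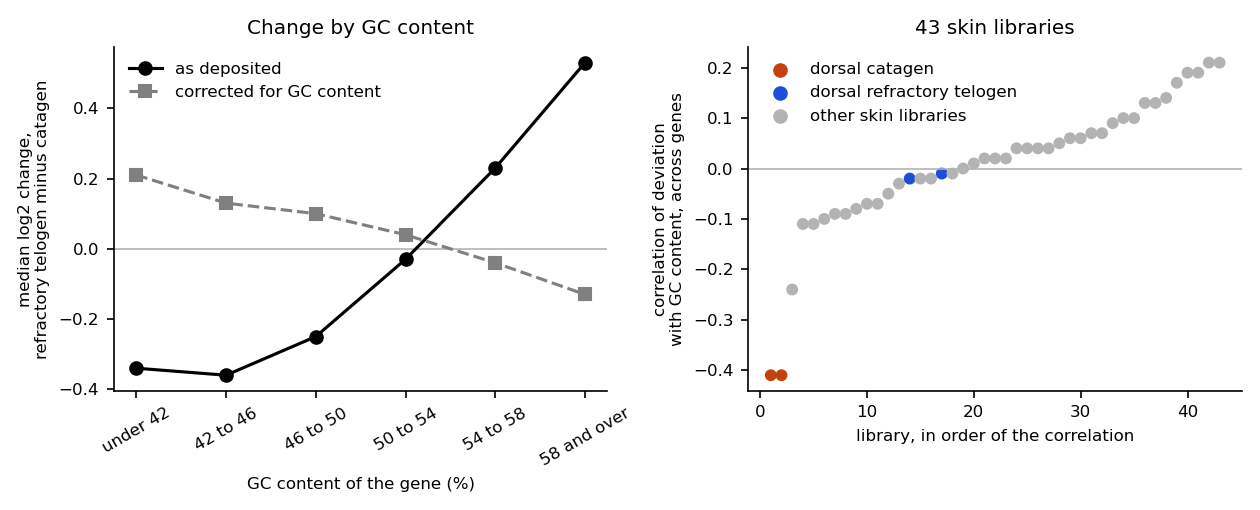
Median log2 change from dorsal catagen to refractory telogen in 6 bins of transcript GC content (percent), as deposited and after the GC correction, and, in the right panel, the correlation of each of the 43 libraries' deviations with GC content, in order of size. As deposited the median runs from -0.34 in the lowest bin to 0.53 in the highest, and after the correction from 0.21 to -0.13, and the 2 catagen libraries lie at -0.41, apart from the other 41.

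The stage labels were checked by markers in all 14 dorsal libraries. Mki67, a marker of dividing cells, stood at 23.0 and 22.8 FPKM in catagen, above all other dorsal libraries, which lay between 6.12 and 13.4 FPKM outside refractory telogen, and at 1.88 and 2.14 FPKM in refractory telogen, below all others. The catagen libraries thus had the highest and the refractory libraries the lowest Mki67 level of the dorsal series. A high Mki67 level in libraries labelled catagen differs from the background above, in which division stops in catagen. Whether these libraries were taken at the stage of their label was not tested, and stages are named here by their labels only. Markers of the growing bulb moved both ways. Krt71, a keratin of the inner root sheath, was at 2764 and 2819 FPKM in catagen and at 5703 and 6055 FPKM in refractory telogen. Krt25 and trichohyalin (Tchh), also of the inner root sheath, and Hoxc13, a regulator of hair keratins, were lower in refractory telogen, with levels given below. Krt31, a hair shaft keratin, was at 809 FPKM in both catagen libraries and at 940.4 and 919 FPKM in refractory telogen, where the other dorsal libraries ranged from 100.1 to 1801 FPKM. Libraries labelled refractory telogen therefore still held high levels of shaft and sheath keratin transcripts, as did the 2 dorsal libraries labelled competent telogen, with Krt71 at 8292 and 8240 FPKM.

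**Figure D2:**
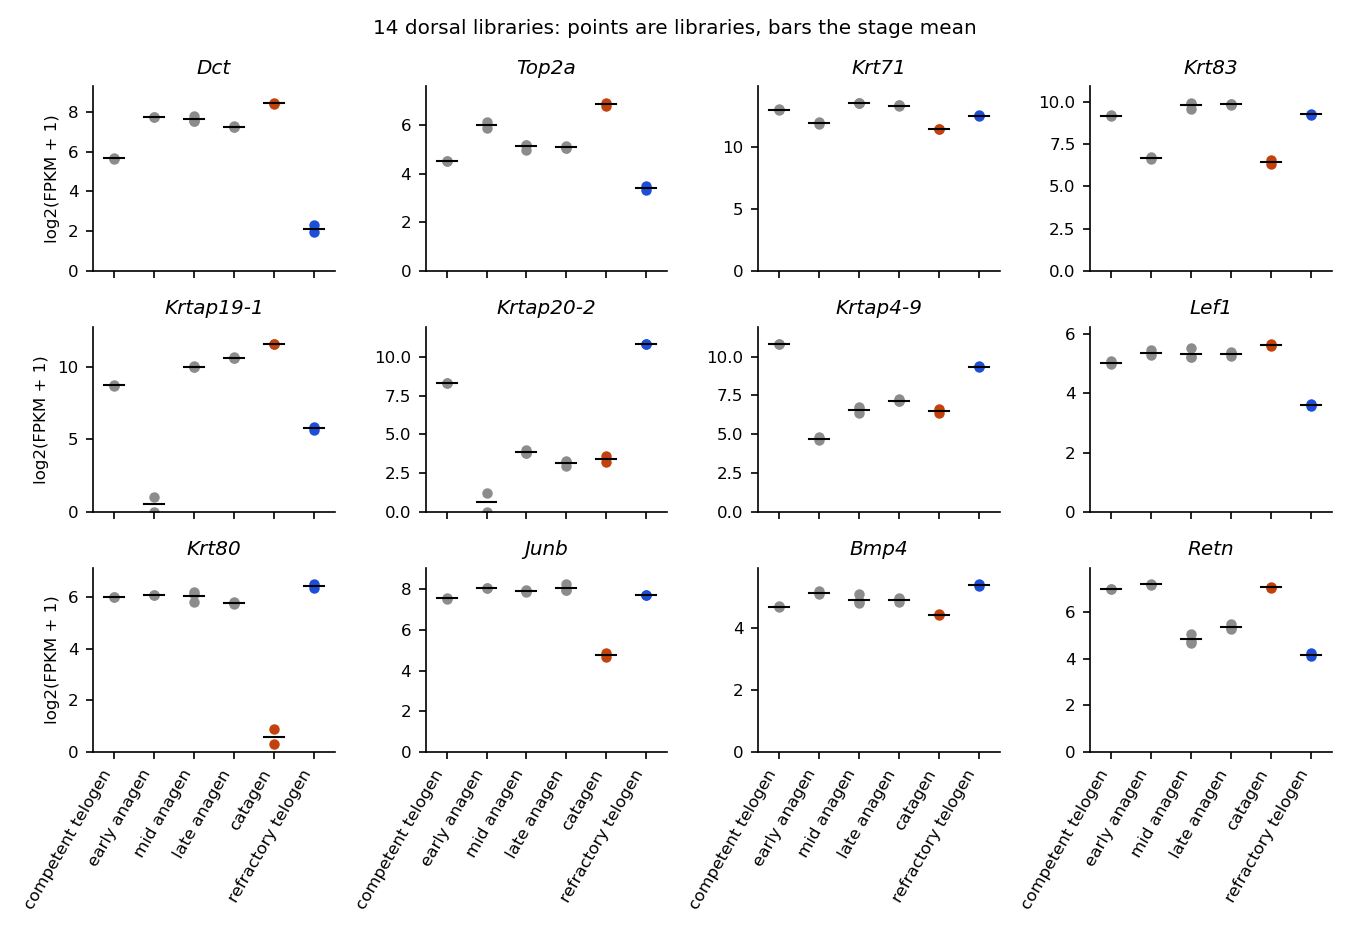
Levels of 12 genes, log2(FPKM + 1), in the 14 dorsal libraries by hair cycle stage, 1 point per library, with a bar at the stage mean (catagen in red, refractory telogen in blue). Dct, Top2a and Lef1 have their lowest points in refractory telogen, whereas Krt80 and Junb have theirs in catagen.

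From catagen to refractory telogen 9371 of the 16414 genes tested changed at an adjusted p under 0.05 (limma, Benjamini-Hochberg), 57.1% of them, of which 4112 rose (25.1%) and 5259 fell (32.0%). After the GC correction 8846 of 16348 genes changed (54.1%), 4830 up (29.5%) and 4016 down (24.6%), so that the share of rises among the calls went from 43.9% to 54.6%. Both versions called 6504 genes in the same direction and 51 in opposite directions, while 2783 calls were lost and 2291 gained by the correction. The median change of all genes was -0.09 as deposited, between -0.09 and 0.00 under the other scalings, and 0.06 after the correction. At a change of at least 2-fold 3205 genes remained (19.5%), with 1486 higher (9.05%) and 1719 lower (10.5%), and 2829 after the correction, 1533 higher and 1296 lower. Both refractory libraries lay above both catagen libraries for 36.8% of the genes tested and below them for 45.3%. Among the 4112 genes that rose, the catagen libraries alone lay outside the range of the 10 libraries of the other dorsal stages for 1768, the refractory libraries alone for 550, both for 652 and neither for 1142. Among the 5259 that fell, these numbers were 1702, 1397, 950 and 1210. Over all genes tested, both catagen libraries lay below the other dorsal stages for 19.9% and above them for 20.2%, and both refractory libraries below them for 20.3% and above them for 10.2%. Many of the calls thus rest on where the catagen libraries lay relative to the rest of the dorsal cycle.

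Pigment genes fell furthest among the lists. Of the 15 melanocyte and pigment genes tested 13 fell and none rose, with a median of -2.98, and after the GC correction 14 fell with a median of -2.79. The median was -4.43 without catagen replicate 1 and -4.36 without replicate 2, where 11 genes remained tested. The other members reached the filter on low values only through the catagen libraries, which fixed the direction of their change. Summed over the list, FPKM was 1177 and 1174 in catagen and 52.8 and 50.1 in refractory telogen, a 22.8-fold lower sum. In the RefSeq promoter table (GRCm38.p6, 250 bases before to 50 after the start) 6 of the 9 members with an entry held the M-box TCATGTG on either strand, which is 66.7% against 4.31% of all 27025 genes of the table. The M-box contains an E-box (CANNTG) and is known to be bound by MITF. Kit, Mitf and Oca2 did not hold these letters in this window, and Gpr143, Mlana, Pmel, Rab38, Slc45a2 and Sox10 had no entry. The promoters of 4 of these members are shown because their genes are among those with the largest falls or encode the first enzyme of melanin synthesis. They are Dct (chr14:118052197-118052496, minus strand), Tyrp1 (chr4:80833963-80834262, plus strand), Tyr (chr7:87493463-87493762, minus strand) and Slc24a5 (chr2:125067877-125068176, plus strand), each 5′ to 3′ along its gene with the M-box on either strand in capitals.
Dct: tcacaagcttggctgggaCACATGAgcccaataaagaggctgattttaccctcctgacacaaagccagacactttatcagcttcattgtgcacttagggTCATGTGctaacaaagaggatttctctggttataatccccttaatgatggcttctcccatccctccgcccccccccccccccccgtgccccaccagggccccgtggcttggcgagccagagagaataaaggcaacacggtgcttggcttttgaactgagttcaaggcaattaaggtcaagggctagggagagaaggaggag
Tyrp1: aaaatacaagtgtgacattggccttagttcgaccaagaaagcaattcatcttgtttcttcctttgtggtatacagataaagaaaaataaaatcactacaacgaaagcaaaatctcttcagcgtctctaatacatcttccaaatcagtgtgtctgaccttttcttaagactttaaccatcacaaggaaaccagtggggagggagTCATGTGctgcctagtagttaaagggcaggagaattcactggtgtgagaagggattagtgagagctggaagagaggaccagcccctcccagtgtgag
Tyr: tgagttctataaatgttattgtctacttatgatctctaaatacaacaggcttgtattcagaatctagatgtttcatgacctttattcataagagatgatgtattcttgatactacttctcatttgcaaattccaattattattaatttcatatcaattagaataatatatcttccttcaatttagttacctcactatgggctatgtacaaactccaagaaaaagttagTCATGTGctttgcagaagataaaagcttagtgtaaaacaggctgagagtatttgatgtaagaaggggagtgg
Slc24a5: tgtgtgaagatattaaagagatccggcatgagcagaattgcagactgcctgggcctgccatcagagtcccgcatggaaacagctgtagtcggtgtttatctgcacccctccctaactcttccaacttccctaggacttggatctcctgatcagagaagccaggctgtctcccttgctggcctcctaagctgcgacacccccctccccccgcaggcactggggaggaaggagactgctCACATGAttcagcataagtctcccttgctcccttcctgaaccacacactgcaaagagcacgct

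Mlana (chr19:29697824-29708634; GRCm38, as for all gene positions here), a melanosome protein, was at 473 and 459 FPKM in catagen and at 2.53 and 1.32 FPKM in refractory telogen. Its change of -7.35 (SE 0.29, adjusted p = 1.14e-17) was the largest fall among the protein-coding genes that met the naming rule, and both refractory libraries lay below the other dorsal stages, which had 69.3 to 296 FPKM. Dct (chr14:118012790-118052244), the dopachrome tautomerase of melanin synthesis, whose promoter held 2 M-boxes, was at 342 and 354 FPKM in catagen, above the 49.4 to 223 FPKM of the other stages. It was at 2.9 and 3.91 FPKM in refractory telogen and fell by 6.32 (SE 0.18, adjusted p = 8.09e-21). Tyrp1, an enzyme of the same pathway, went from 83.3 and 85.9 to 0.58 and 0.64 FPKM and fell by 5.73 (SE 0.27). The groups did not overlap for any of these genes, which the naming rule required. Of all genes tested, 45.3% had both refractory libraries below both catagen libraries and 36.8% had them above.

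Pmel, which forms the fibrils on which melanin is laid down, was at 71.3 and 70.1 FPKM in catagen and at 0.73 and 1.34 FPKM in refractory telogen, and fell by 5.15 (SE 0.26). Slc24a5, a cation exchanger of the pigment organelle, stood at 53.6 and 48.2 against 1.11 and 0.08 FPKM and fell by 5.10 (SE 0.32). Trpm1, a channel gene of melanocytes that also held an M-box, stood at 29.7 and 31.2 against 0.65 and 0.36 FPKM. Tyr, the tyrosinase that starts the pathway, was at 38.1 and 40.4 FPKM in catagen and at 3.24 and 5.17 FPKM in refractory telogen, and its change of -2.98 (SE 0.24) was the smallest of the 3 enzymes. In catagen Dct, Mlana and Slc24a5 exceeded every other dorsal stage, which held 9.3 to 44.28 FPKM for Slc24a5. Tyrp1, Pmel and Trpm1 lay within the other stages in catagen. Those stages held 17.83 to 143.33 FPKM for Tyrp1, 42.6 to 269.01 for Pmel and 17.97 to 69.54 for Trpm1. For Dct, Mlana, Slc24a5, Tyrp1, Pmel and Trpm1 both refractory libraries lay below every other dorsal stage.

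Mitf, Sox10 and Kit, 3 other members chosen after their values were seen, had smaller changes than these pigment genes. Mitf, the transcription factor of the melanocyte lineage, was at 17.0 and 17.8 FPKM in catagen and at 17.5 and 15.8 FPKM in refractory telogen, a change of -0.06 (SE 0.15, adjusted p = 0.758). Sox10, a factor of neural crest derivatives, was at 2.27 and 2.47 against 2.23 and 1.79 FPKM, a change of -0.17 (SE 0.15, adjusted p = 0.369), but of -1.18 after the GC correction (adjusted p = 9.59e-08). Mitf thus passed in neither version, and Sox10 passed only after the correction. Kit, the stem cell factor receptor of melanocytes and mast cells, fell from 10.0 and 9.69 to 2.94 and 2.51 FPKM, a change of -1.55 (SE 0.14). Of the mast cell list, 3 of 6 genes fell (4, with 1 rise, after the correction), among them Cma1, a chymase, from 21.1 and 24.2 to 5.9 and 6.33 FPKM.

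**Figure D3:**
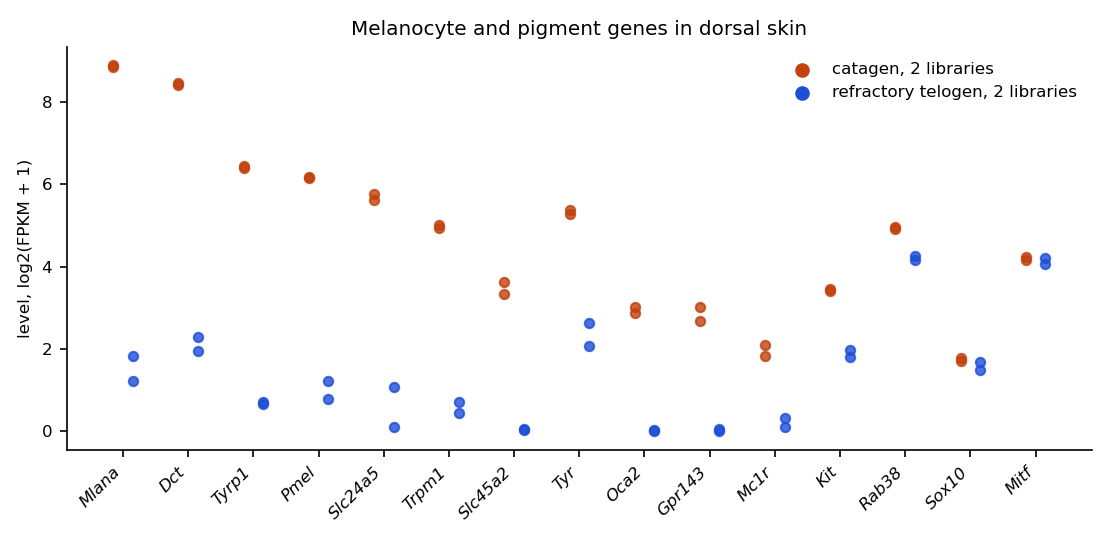
Levels of the 15 melanocyte and pigment genes, log2(FPKM + 1), in the 2 catagen and 2 refractory telogen libraries of dorsal skin, 1 point per library, ordered by the size of the fall. The groups are far apart from Mlana to Kit and overlap for Mitf, while the Sox10 points lie close together.

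Genes of the cell cycle fell together. Of 40 cell cycle and mitosis genes tested 39 fell and none rose, with a median of -2.06, and the same counts were found after the GC correction with a median of -1.78. Pttg1, securin, was the exception, at 79.2 and 76.3 against 63.5 and 62.5 FPKM (adjusted p = 0.0939). Of the 34 members with a promoter entry, 79.4% held the CCAAT box, bound by NF-Y, 52.9% the TTTGAA form of the cell cycle homology region, and 50% both, each searched on either strand and on its own, so that a base could count for both. The shares over all 27025 genes were 41.1%, 20.2% and 8.97%. Promoters of Top2a (chr11:99024140-99024439, minus strand), Cdk1 (chr10:69352863-69353162, minus strand) and Plk1 (chr7:122159185-122159484, plus strand) are shown as members of the DNA topology, kinase and spindle groups that hold both elements, with both in capitals on either strand.
Top2a: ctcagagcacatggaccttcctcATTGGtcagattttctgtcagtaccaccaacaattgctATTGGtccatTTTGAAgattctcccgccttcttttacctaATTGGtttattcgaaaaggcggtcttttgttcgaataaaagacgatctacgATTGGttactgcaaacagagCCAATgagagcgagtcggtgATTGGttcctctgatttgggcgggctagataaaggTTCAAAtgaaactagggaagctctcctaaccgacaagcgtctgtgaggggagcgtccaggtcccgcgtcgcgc
Cdk1: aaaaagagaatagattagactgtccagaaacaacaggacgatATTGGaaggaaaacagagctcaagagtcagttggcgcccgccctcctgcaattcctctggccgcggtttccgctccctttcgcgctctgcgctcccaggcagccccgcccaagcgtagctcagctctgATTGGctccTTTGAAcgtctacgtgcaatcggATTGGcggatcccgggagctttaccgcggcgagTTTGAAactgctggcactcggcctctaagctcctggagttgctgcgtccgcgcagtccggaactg
Plk1: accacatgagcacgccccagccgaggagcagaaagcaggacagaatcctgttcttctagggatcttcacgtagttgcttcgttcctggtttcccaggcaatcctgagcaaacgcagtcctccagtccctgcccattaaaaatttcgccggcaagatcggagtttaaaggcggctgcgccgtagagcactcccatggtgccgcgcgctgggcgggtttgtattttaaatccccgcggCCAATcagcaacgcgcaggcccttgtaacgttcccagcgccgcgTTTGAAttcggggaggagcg

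Top2a (chr11:98992943-99024189), the topoisomerase that untangles replicated DNA, had the largest fall of the list. It was at 111 and 120.3 FPKM in catagen, above the 22.1 to 68.7 FPKM of the other dorsal stages, and at 9.04 and 10.3 FPKM in refractory telogen, and fell by 3.45 (SE 0.16, adjusted p = 5.14e-16). Tyms, which makes thymidylate for DNA synthesis, fell from 104 and 91.2 to 11.2 and 10.0 FPKM, a change of -3.08 (SE 0.18). Mki67 fell by 2.99 (SE 0.09, adjusted p = 7.87e-20). Cdk1, the kinase of mitotic entry, was at 60.2 and 60.9 FPKM in catagen, within the 43.4 to 147 FPKM of the other stages, and at 13.5 and 12.6 FPKM in refractory telogen, a change of -2.14 (SE 0.22). Catagen was therefore not the highest stage for every cell cycle gene. Plk1, a spindle kinase, was at 6.94 and 5.42 FPKM in catagen, below the other stages (7.61 to 24.1 FPKM), and fell by 1.2 (SE 0.17) to 2.13 and 2.09 FPKM.

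Hair shaft and root sheath genes moved both ways. Of 56 keratin-associated protein genes tested, which encode the matrix between the keratin filaments of the shaft, 28 rose and 17 fell with a median of 0.53 (28 and 15 with a median of 0.49 after the GC correction). The families, grouped after their values were seen, went in opposite directions. All 7 Krtap19 genes on chr16 fell, with a median of -3.64, while all 8 Krtap4 genes on chr11 rose, by a median of 2.27, and all 4 Krtap6 genes rose with a median of 1.36. After the correction 6 of the 7 Krtap19 genes still fell and all 8 Krtap4 and all 4 Krtap6 genes still rose. Members of a family are near-identical copies, so that the division of fragments among them is uncertain.

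Krtap19-1 (chr16:88868917-88869411) was at 3180.3 and 3082 FPKM in catagen and at 50.5 and 55.7 FPKM in refractory telogen, a change of -5.86 (SE 0.25, adjusted p = 5.05e-17). Krtap20-2 (chr16:89205861-89206394) moved the other way, from 8.27 and 11.3 to 1848 and 1862 FPKM, a rise of 7.44 (SE 0.24, adjusted p = 1.45e-19). Its refractory level was above the highest of the other stages, 321 FPKM in competent telogen. Krtap4-9 (chr11:99785200-99786258) rose from 99.5 and 79.6 to 675 and 633 FPKM, by 2.86 (SE 0.23). These genes lie in the clusters of chromosomes 11 and 16, and neighbours on chr16 thus moved in opposite directions.

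Among the hair keratins, 2 of 9 type I genes rose and 3 fell (median -0.04), and 3 of 5 type II genes rose and none fell (median 0.61). After the correction 2 type I genes rose and 4 fell (median -0.33) and 2 type II genes rose (median 0.27). Krt83, a type II keratin of the shaft cortex, was at 79.7 and 94.4 FPKM in catagen and at 623 and 602 FPKM in refractory telogen, and rose by 2.81 (SE 0.21, adjusted p = 5.44e-12). Krt34, a type I keratin of the shaft, was at 1086 and 1070.0 against 488 and 483 FPKM and fell by 1.15 (SE 0.12). Krt39, a type I keratin, rose from 8.85 and 10.9 to 29.9 and 27.9 FPKM. Krt31 and Krt35 did not pass, with changes of 0.20 (adjusted p = 0.338) and -0.04 (adjusted p = 0.877).

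Of 16 inner root sheath genes 6 rose and 6 fell with a median of -0.08 (4 and 5, median 0.09, after the correction). Krt71 rose while its type I partner Krt25 was at 3794 and 3649 FPKM in catagen and 1884 and 1651 FPKM in refractory telogen, and trichohyalin (Tchh) at 2857 and 2779 against 1535 and 1403 FPKM, both of which fell. S100a3, a calcium-binding protein of the hair cuticle, was at 17032 and 15822 FPKM in catagen, above all other dorsal stages, and fell by 1.48 (SE 0.18) to 5829 and 5959.7 FPKM. Krt74, which is annotated as a transcribed pseudogene in the mouse, rose from 1.77 and 0.93 to 11.1 and 11.6 FPKM, by 2.42 (SE 0.27). Of the 17 transcription factors of matrix and shaft 5 rose and 7 fell (4 and 8 after the correction). Mycn, a MYC family factor of dividing matrix cells, had the largest fall of that list, from 17.73 and 17.96 to 0.75 and 0.59 FPKM (-3.50, SE 0.24). Hr (chr14:70552212-70573548), the hairless corepressor that is needed for regrowth after the first catagen, had the largest rise, from 4.94 and 4.41 to 61.0 and 59.5 FPKM, by 3.43 (SE 0.16), and both groups lay outside the 10.2 to 38.7 FPKM of the other stages. Hoxc13, a regulator of hair keratins, was at 208 and 178 FPKM in catagen and at 58.4 and 60.4 FPKM in refractory telogen.

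Epidermal genes were mostly higher in refractory telogen. Of 8 keratins of the interfollicular epidermis 7 rose and none fell with a median of 1.22 (6 and a median of 1.11 after the correction). Krt14 and Krt5 form the filaments of basal keratinocytes. Krt14 was at 1194 and 1147 FPKM in catagen and at 3985 and 3832 FPKM in refractory telogen, a rise of 1.74 (SE 0.13, adjusted p = 4.17e-12). Krt5 was at 491 and 482 against 1720.2 and 1612 FPKM and rose by 1.77 (SE 0.15). For both genes the catagen libraries lay below and the refractory libraries above every other dorsal stage. Krt10, a keratin of the differentiating layers, rose by 0.87 (SE 0.23), and Krt2 was low in all 4 libraries. All 5 keratins of the companion layer and of stressed epidermis rose (median 1.17, 0.98 after the correction), and Krt6a, a keratin of companion layer cells and wounds, was the largest, from 65.0 and 67.7 to 410.1 and 381 FPKM (2.56, SE 0.12).

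Krt80 (chr15:101347444-101370162), an epithelial keratin, rose by 5.80 (SE 0.36, adjusted p = 1.55e-13), from 0.24 and 0.86 to 88.0 and 79.6 FPKM. The other dorsal stages held 51.1 to 72.5 FPKM, so that the catagen libraries were the ones that stood apart most, although both refractory libraries were also above that range. Lars2, Lypla2 and Sept5 were also lowest in catagen. Sept5, a septin, was at 1.47 and 2.6 against 34.4 and 34.5 FPKM. Lars2, the mitochondrial leucyl-tRNA synthetase, was at 340.4 and 444 FPKM in catagen and at 7781 and 9416 FPKM in refractory telogen, within the 3752 to 10785 FPKM of the other stages. Lypla2, a thioesterase, was at 1.77 and 2.77 against 58.8 and 54.5 FPKM, and the other stages held 64.2 to 104 FPKM. Styx, a pseudophosphatase, was listed at 0 in catagen and at 11.5 and 10.6 FPKM in refractory telogen, and Rps12, a ribosomal protein gene with many near-identical copies, at 0 and then at 66.9 and 15.3 FPKM. Slc5a2, a sodium-glucose cotransporter, differed from these, since it was at 0 and 0.13 FPKM in catagen, between 0.0 and 1.9 FPKM in the other stages and at 12.6 and 13.9 FPKM in refractory telogen. Its rise of 3.74 (SE 0.20, adjusted p = 6.27e-15) thus came with refractory libraries that stood apart. Nrtn, the neurturin ligand, had the highest GC content of these genes, 72.8%, and its rise of 3.52 was 1.36 after the correction.

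Of 41 genes of the cornified envelope, the protein shell of the outermost epidermal cells, 27 rose and 7 fell (median 0.78, and 21 and 8 with a median of 0.89 after the correction, over 38 genes with a GC value). Without the filter on low values 52 were tested, of which 24 rose and 7 fell with a median of 0.57. The median was 0.71 without refractory replicate 1 and 0.83 without replicate 2, where 38 genes remained tested. As with the Krtap genes, 2 families of the same chromosome, grouped after their values were seen, went opposite ways. All 14 Lce1 genes on chr3 rose with a median of 1.67 (12 after the correction), whereas 4 of 5 Lce3 genes fell in both versions and the median of the 5 was -2.49. Lce3d, of the family linked to wounded and inflamed epidermis, fell from 19.97 and 18.71 to 0.54 and 0.94 FPKM (-3.56, SE 0.34). Sprr4, a small proline-rich envelope protein, rose from 27.7 and 19.8 to 303 and 254 FPKM (3.51, SE 0.32), above the other dorsal stages, while Sprr1b fell from 108 and 92.5 to 12.4 and 9.99 FPKM (-3.06, SE 0.40). Lor (chr3:92080271-92083142), loricrin, the main envelope protein, was at 111 and 103 FPKM in catagen and at 974 and 483 FPKM in refractory telogen, and rose by 2.67 (SE 0.37), or by 1.09 after the correction.

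**Figure D4:**
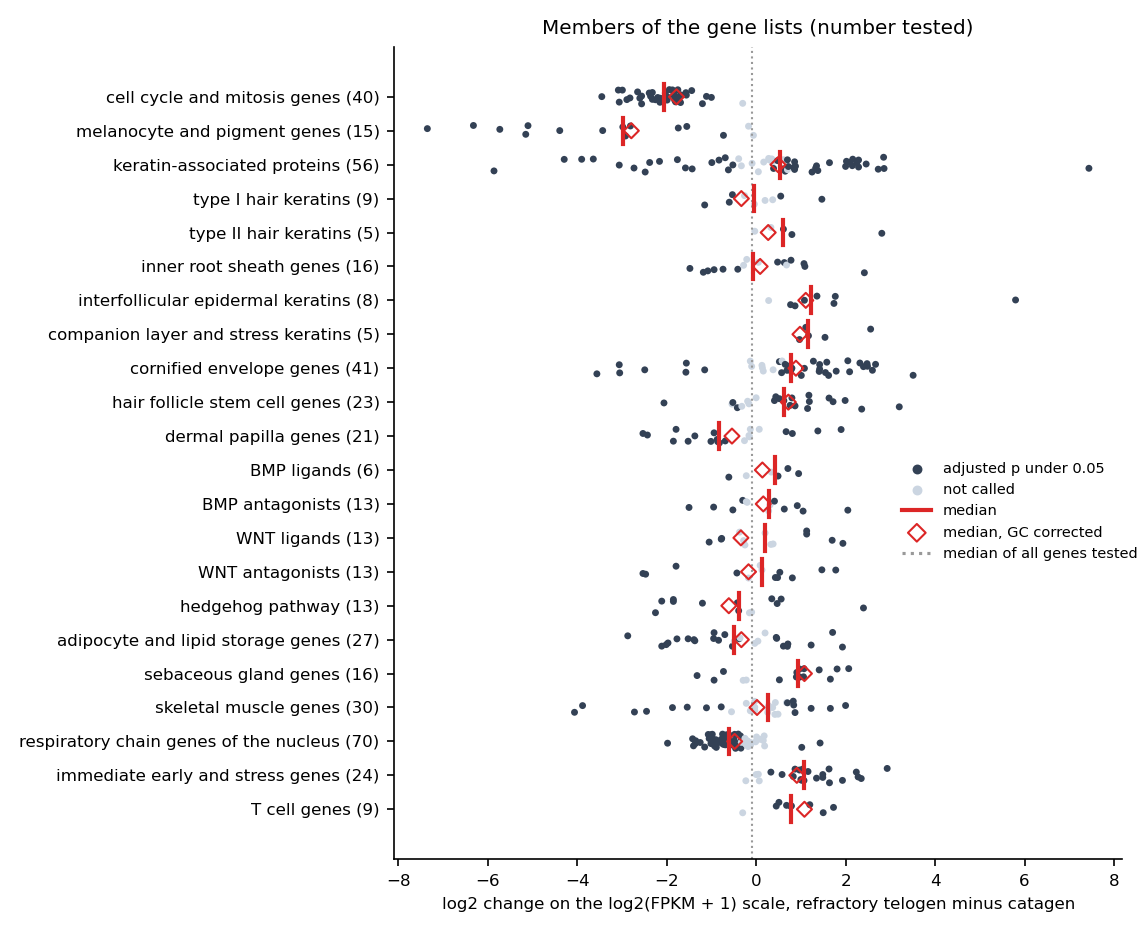
Log2 change from dorsal catagen to refractory telogen for the tested members of 22 gene lists, 1 point per gene, dark where the adjusted p was under 0.05, with the median as deposited (bar) and after the GC correction (diamond). Medians are -2.06 for cell cycle genes, -2.98 for pigment genes and 1.22 for interfollicular keratins, and the dotted line is the median of all genes, -0.09.

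Stem cell genes were more often higher. Of 23 follicle stem cell genes 15 rose and 3 fell (median 0.62, and 12 and 3 with a median of 0.72 after the correction). Among all genes tested 25.1% rose and 32.0% fell, or 29.5% and 24.6% after the correction. Krt15, a keratin of the bulge and the basal layer, was at 488 and 482 FPKM in catagen, below the other dorsal stages, and at 1882 and 1986 FPKM in refractory telogen, and rose by 1.99 (SE 0.18, adjusted p = 1.41e-10). Lgr5, the R-spondin receptor of bulge and germ cells, was at 8.18 and 7.95 against 14.8 and 14.7 FPKM and rose by 0.80 (SE 0.12, adjusted p = 1.42e-06), or by 1.18 after the correction. Its refractory level was above the 5.84 to 11.02 FPKM of the other stages. Cd34, the surface marker of bulge cells and of dermal cells, rose by 0.52 (SE 0.14) from 29.3 and 26.2 to 40.7 and 39.6 FPKM. Tbx1 (chr16:18580979-18590671), a T-box factor of follicle stem cells, rose from 1.98 and 3.11 to 31.7 and 30.9 FPKM, by 3.20 (SE 0.17), or by 1.91 after the correction. Plet1, a surface protein of the upper follicle, rose from 11.5 and 10.2 to 61.5 and 57.6 FPKM, by 2.36 (SE 0.13), above the 31.7 to 37.0 FPKM of the other stages. Aldh1a3, a retinoic acid enzyme, was the member with the largest fall, from 71.9 and 81.7 to 14.8 and 20.9 FPKM (-2.06, SE 0.21). Lhx2, a factor of the bulge and germ, was one of the rises that depended on the processing, at 0.76 (adjusted p = 0.0019) as deposited and 0.08 (adjusted p = 0.771) after the correction.

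Dermal papilla genes fell more often than they rose, with 12 of 21 lower and 4 higher (median -0.82) and 12 and 3 after the correction (median -0.54). Among all genes tested 32.0% fell and 25.1% rose, or 24.6% and 29.5% after the correction. The papilla median was -0.49 without catagen replicate 1 and -0.46 without replicate 2, where 18 genes remained tested. Without the filter on low values it was -0.26 over all 25 genes of the list. Rspo3, a secreted WNT amplifier of the papilla, was at 14.9 and 13.7 FPKM in catagen, above the 1.38 to 6.6 FPKM of the other stages, and fell by 2.43 (SE 0.20, adjusted p = 3.59e-11) to 2.07 and 1.64 FPKM. Corin, a protease of the papilla, fell from 3.37 FPKM in both catagen libraries to 0.3 and 0.23 FPKM, a change of -1.79 (SE 0.14). Fgf7 and Fgf10, papilla growth factors for the epithelium, changed by -0.87 (SE 0.23) and -0.86 (SE 0.16), and neither passed after the correction (adjusted p = 0.234 and 0.0787). Igfbp3, which binds insulin-like growth factors, had the largest rise of the list, from 21.7 and 21.9 to 86.2 and 82.7 FPKM (1.90, SE 0.18), above the other dorsal stages. Alpl, the alkaline phosphatase used to mark the papilla, was at 0.66 and 0.71 against 0.5 and 0.59 FPKM and did not pass (adjusted p = 0.606).

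BMP ligands did not all move the same way. Of the 14 in the list 6 were tested, of which 3 rose and 1 fell (median 0.42), and 2 rose and 2 fell after the correction (median 0.14). Without the filter on low values 13 were tested, of which 3 rose and 1 fell with a median of 0.06. Bmp4 (chr14:46383520-46390669), a ligand known from dermis and papilla, was at 20.3 and 21.1 FPKM in catagen and at 40.4 and 41.6 FPKM in refractory telogen, and rose by 0.95 (SE 0.14, adjusted p = 9.47e-07), or by 1.00 after the correction. The other dorsal stages held 24.5 to 35.8 FPKM, so that catagen was the lowest and refractory telogen the highest stage for this ligand. Bmp2, a ligand known from the adipose layer and the follicle, moved the other way, from 13.95 and 13.25 to 8.45 and 8.74 FPKM, a change of -0.61 (SE 0.12). Bmp7 rose by 0.49 (SE 0.08) and Bmp8a by 0.71 (SE 0.16), but after the correction they changed by 0.12 (adjusted p = 0.219) and 0.15 (adjusted p = 0.336). Bmp6 was at 1.51 and 1.4 against 1.03 and 1.2 FPKM (adjusted p = 0.243) and passed only after the correction, as a change of -0.63.

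Of 13 BMP antagonists 5 rose and 4 fell (median 0.28), and 6 rose and 1 fell after the correction (median 0.16). Noggin (Nog), the antagonist most studied in the follicle, was at 0.57 and 0.58 against 0.99 and 0.85 FPKM and did not pass (adjusted p = 0.238). Nbl1 had the largest rise, from 12.6 and 12.0 to 55.3 and 52.6 FPKM (2.05, SE 0.14), or 0.92 after the correction. Fst, follistatin, rose by 0.41 (SE 0.09) and Grem1, a gremlin, by 0.63 (SE 0.18). Fstl1, a secreted follistatin-like protein, fell from 146 and 148 to 55.1 and 48.2 FPKM, a change of -1.5 (SE 0.17). Sostdc1 fell by 0.30 (SE 0.13, adjusted p = 0.0447), but changed by 0.15 (adjusted p = 0.405) after the correction. Among the 6 genes that respond to BMP signals, 3 rose and 1 fell (1 and 2 after the correction), and none rose without refractory replicate 1. Id1, an inhibitor of bHLH factors, rose from 78.2 and 79.1 to 133 and 113 FPKM (0.63, SE 0.20), and Id2 fell from 146 in both to 104 and 103 FPKM (-0.50, SE 0.13). Neither passed after the correction (adjusted p = 0.0566 and 0.573). Of 10 BMP receptors and Smads 2 rose and 3 fell, and 3 rose and 3 fell after the correction. Bmpr1a, the receptor that transmits BMP signals in the follicle, was at 34.6 and 32.7 against 27.6 and 24.9 FPKM and did not pass (adjusted p = 0.122).

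**Figure D5:**
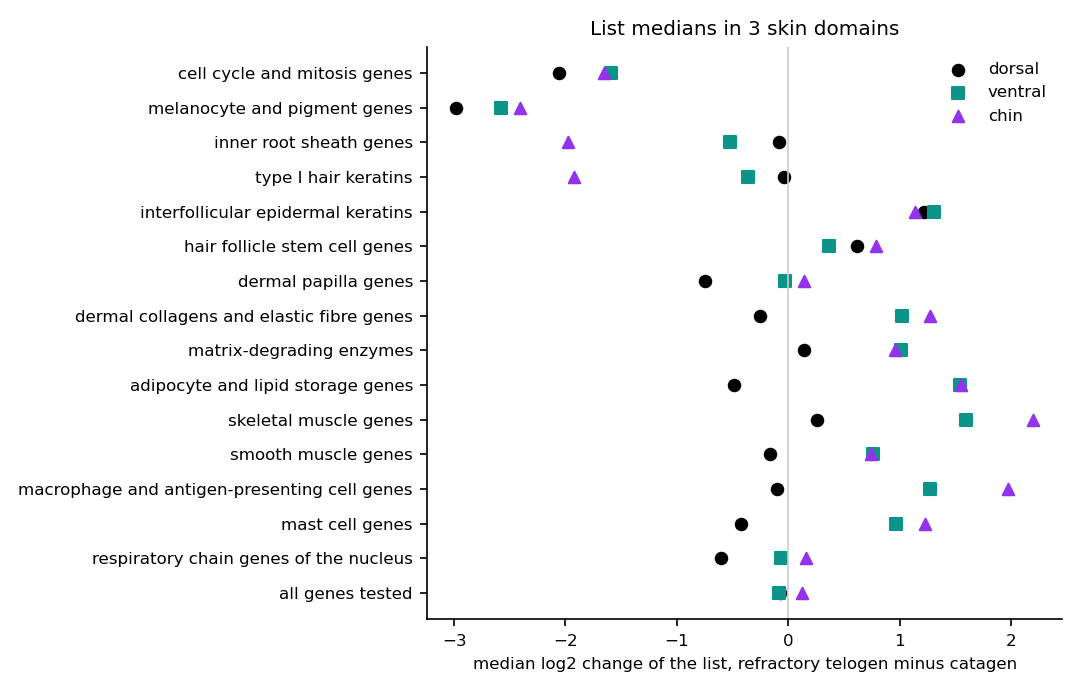
Median log2 change of each gene list from catagen to refractory telogen in dorsal, ventral and chin skin, 1 point per domain. The dorsal points lie left of both others for the adipocyte, skeletal muscle, collagen and macrophage lists, and all 3 are below 0 for cell cycle and pigment genes.

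The medians of the WNT ligands and of the WNT antagonists turned with the GC correction. Of 13 ligands tested, 4 rose and 3 fell with a median of 0.20, and 3 rose and 6 fell with a median of -0.34 after the correction. Wnt4, a ligand of the epidermis and germ, fell from 24.9 and 24.0 to 11.2 and 11.3 FPKM (-1.05, SE 0.13, adjusted p = 4.37e-08), and Wnt3 fell from 36.0 and 36.2 to 20.9 and 20.3 FPKM (-0.78, SE 0.12). Wnt11 and Wnt7b rose in both versions. Wnt11 was at 6.4 and 6.68 against 29.0 and 26.7 FPKM (1.94, SE 0.27), and Wnt7b, a ligand of the follicle epithelium, at 2.46 and 2.52 against 10.6 and 10.1 FPKM (1.70, SE 0.17). Wnt10a, a ligand of the follicle epithelium, rose by 1.13 (SE 0.18) from 6.88 and 6.5 to 15.6 and 15.9 FPKM as deposited and changed by -0.04 after the correction.

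Of 13 WNT antagonists 6 rose and 4 fell (median 0.13), and 4 rose and 5 fell after the correction (median -0.17). Wif1, which binds WNT ligands and is high in the papilla, fell from 35.7 and 39.9 to 6.13 and 5.28 FPKM, a change of -2.53 (SE 0.15, adjusted p = 5.18e-14), below the other dorsal stages. Sfrp4 and Sfrp2, decoy receptors, fell, with changes of -2.47 (SE 0.28) and -1.79 (SE 0.31). Sfrp2 was at 9.01 and 9.93 against 1.79 and 2.29 FPKM. Dkk2, an inhibitor of the LRP co-receptors, rose from 2.04 and 1.39 to 6.78 and 6.17 FPKM (1.47, SE 0.19), and Dkkl1 from 23.7 and 21.95 to 86.4 and 75.8 FPKM (1.78, SE 0.21). Both stood above the other dorsal stages in refractory telogen. Members of the antagonist list thus rose and fell in both versions.

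Of 18 WNT receptors and co-receptors 5 rose and 5 fell, and 5 and 8 after the correction, while 2 rose without catagen replicate 1 or without refractory replicate 1. Ryk, a receptor-like kinase for WNT ligands, had the largest fall, from 49.6 and 47.5 to 21.1 and 19.6 FPKM (-1.21, SE 0.10). Of 15 WNT/beta-catenin target genes 4 rose and 6 fell with a median of -0.17, and 2 rose and 8 fell with a median of -0.30 after the correction. Lef1, the partner of beta-catenin in matrix and germ, was at 47.5 and 50.5 FPKM in catagen, above the 30.8 to 45.2 FPKM of the other stages, and at 10.9 and 11.4 FPKM in refractory telogen, below them. It fell by 2.05 (SE 0.23, adjusted p = 1.84e-08). Axin2, the standard read-out of the pathway, was at 6.79 and 5.88 against 4.57 and 4.58 FPKM, a change of -0.39 (SE 0.14, adjusted p = 0.0173), or of -0.84 after the correction.

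Hedgehog genes fell more often than they rose, as did all genes tested as deposited (32.0% against 25.1%). After the correction 24.6% of all genes fell and 29.5% rose. Of 13 genes of the pathway 7 fell and 4 rose (median -0.39), and 8 fell and 1 rose after the correction (median -0.61). Shh, the ligand made by matrix and germ cells, was at 3.74 and 4.05 against 1.19 and 1.08 FPKM and fell by 1.2 (SE 0.24, adjusted p = 0.00014). Ptch1, its receptor and target, fell from 12.5 and 13.8 to 2.81 and 3.03 FPKM (-1.85, SE 0.14). Gli3, a transcription factor of the pathway, fell from 13.0 and 14.5 to 2.24 and 2.57 FPKM (-2.11, SE 0.14). For Ptch1 and Gli3 the catagen libraries lay above and the refractory libraries below every other dorsal stage. Gas1, a co-receptor, was the only pathway member that rose in both versions, from 16.9 and 20.5 to 105 and 100.5 FPKM, by 2.40 (SE 0.13), or by 1.19 after the correction. Gli1, the usual target read-out, was low in both stages, at 1.1 and 1.32 against 0.6 and 0.69 FPKM.

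Of 10 FGF ligands 2 rose and 4 fell (2 and 1 after the correction). Fgf5, the signal known to end anagen, was at 4.43 and 4.51 FPKM in catagen and at 2.07 and 2.77 FPKM in refractory telogen and fell by 0.69 (SE 0.24, adjusted p = 0.0186). Fgf18, which is known to hold follicles in telogen, was at 1.66 and 2.74 against 3.32 and 2.98 FPKM and did not pass (0.39, SE 0.25, adjusted p = 0.18). Of 13 FGF receptors and feedback genes 5 rose and 2 fell (3 and 1 after the correction), and Fgfr1 rose from 4.77 and 5.44 to 16.7 and 15.7 FPKM (1.5, SE 0.14). Of 16 TGF-beta and activin genes 5 rose and 4 fell (6 and 4 after the correction), with Ltbp4, which holds latent TGF-beta in the matrix, rising by 2.61 (SE 0.19) and Tmeff1 falling (-1.64, SE 0.16). Of 11 genes of the EGF family 5 rose and none fell (8 and none after the correction), and Btc, betacellulin, rose from 9.18 and 8.58 to 41.2 and 36.5 FPKM (2.01, SE 0.22), above the other dorsal stages. Igf1, a growth factor of the papilla and dermis, fell from 9.29 and 9.54 to 3.12 and 4.15 FPKM (-1.18, SE 0.18).

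In the study, putative activators and inhibitors were genes whose published microarray time course matched the activator or inhibitor simulated by its model. These lists were counted here. Of 226 activators tested 137 fell and 38 rose, with a median of -0.78, and of 120 inhibitors 36 fell and 39 rose, with a median of 0.04. After the correction 131 activators fell and 39 rose, and 42 inhibitors moved each way. Over all genes tested 25.1% rose and 32.0% fell with a median of -0.09, and 29.5% and 24.6% after the correction. The activator median was also below 0 in ventral skin (-0.56) and in the chin (-0.33). Both lists were chosen in the study for their course over the hair cycle of dorsal skin, so that these counts are a description.

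Tissue around the follicle also differed. Of 27 adipocyte and lipid storage genes 14 fell and 8 rose (median -0.49), and 12 and 5 after the correction (median -0.33), while the summed FPKM of the list went from 3348 and 3278 to 1912 and 1932. Adipoq, adiponectin, fell from 113 in both to 25.3 and 25.6 FPKM (-2.11, SE 0.22), and Retn, resistin, from 129 and 131 to 17.9 and 16.2 FPKM (-2.87, SE 0.20). Dgat2, which makes triglyceride in adipocytes and sebocytes, rose from 19.97 and 17.22 to 72.6 and 74.8 FPKM (1.93, SE 0.14). Of 16 sebaceous gland genes 11 rose and 3 fell (median 0.94, and 11 and 2 with a median of 1.08 after the correction). Acsbg1, an acyl-CoA synthetase, rose by 2.07 (SE 0.23), while Elovl3, a fatty acid elongase, fell from 167 and 176 to 68.0 FPKM in both (-1.32, SE 0.15), below the other dorsal stages.

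Skeletal muscle transcripts, from the muscle sheet under the dermis, were present in all 4 libraries, with summed FPKM of 5166 and 5002 in catagen and 6197 and 6079 in refractory telogen. Of the 30 muscle genes 7 rose and 8 fell (7 and 10 after the correction), and 3 rose and 4 to 8 fell with any 1 of the 4 libraries left out. Ckm, the muscle creatine kinase, rose from 103 and 98.2 to 418 and 391 FPKM (2.00, SE 0.38), and Pvalb, parvalbumin of fast fibres, from 84.0 and 82.3 to 265 and 263 FPKM. The 2 largest falls of the list were those of Myl2 and Tnnc1, genes known from slow fibres. Myl2 was at 17.6 and 14 FPKM in catagen and listed at 0 in both refractory libraries, and Tnnc1 fell from 14.7 and 18.2 to 0.19 and 0.16 FPKM (-3.88, SE 0.27). The part that the amount of muscle taken with the skin had in these results was not tested.

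Of 22 macrophage and antigen-presenting cell genes 6 rose and 7 fell (6 and 3 after the correction), and 3 fell without catagen replicate 1 and 4 without either refractory library. Cd74, the invariant chain of class II antigen presentation, rose from 19.5 and 17.7 to 223 and 238 FPKM (3.56, SE 0.34, adjusted p = 7.64e-10), and Cd207, langerin of Langerhans cells, from 1.0 and 1.16 to 6.6 and 5.98 FPKM (1.81, SE 0.17). Mrc1, the mannose receptor of dermal macrophages, fell from 7.22 and 7.14 to 1.78 and 1.41 FPKM (-1.66, SE 0.21). Adgre1, the F4/80 antigen of macrophages, was at 0.97 and 1.17 against 1.61 and 2.02 FPKM and did not pass (adjusted p = 0.145), nor did Csf1r, their growth factor receptor (adjusted p = 0.283). Of 15 T cell genes 9 were tested, of which 8 rose and none fell (median 0.77, and 8 with a median of 1.08 after the correction), but 4 were tested and 3 rose with either refractory library left out. Cd3e went from 0.15 and 0.62 to 3.42 and 3.64 FPKM. Their summed FPKM was 7.64 and 9.14 in catagen and 25.1 and 25.9 in refractory telogen.

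Immediate early and stress genes, which are known to respond within minutes to handling of tissue, were higher in refractory telogen. Of 24 tested 20 rose and none fell (median 1.06), and 20 rose and 4 fell after the correction (median 0.91). Junb, an AP-1 subunit, was at 27.8 and 24.6 FPKM in catagen and at 206 and 205 FPKM in refractory telogen, and the other dorsal stages held 182 to 296 FPKM. Nr4a1, a nuclear receptor, rose from 3.43 and 3.28 to 21.5 and 20.9 FPKM (2.35, SE 0.19). Catagen was thus the low stage for Junb. Of 70 nuclear genes of the respiratory chain 50 fell and 2 rose (median -0.60), and 41 fell and 6 rose after the correction (median -0.48). Ndufa12, a subunit of complex I, was at 1256 and 1215 FPKM in catagen, above the 385 to 594 FPKM of the other stages, and at 317 and 310 FPKM in refractory telogen, below them (a change of -1.98, SE 0.12). Of the 13 mitochondrially encoded genes 2 rose and 2 fell as deposited, and 5 rose and none fell after the correction.

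Whether the dorsal change differed from that of the other domains was tested as an interaction in the same fit, against 2 catagen and 2 refractory libraries of ventral skin and 3 and 3 of the chin. The dorsal change differed from the ventral one for 5926 of 17606 genes (33.7%), with 2774 higher (15.8%) and 3152 lower (17.9%), and after the GC correction for 6053 of 17522 (34.5%, with 16.9% higher and 17.7% lower). It differed from the chin change for 8696 of 18582 genes (46.8%), with 2791 higher (15%) and 5905 lower (31.8%), and after the GC correction for 8193 of 18491 (44.3%, with 19.7% higher and 24.6% lower). The share of higher calls against the chin depended on the scaling: it was 32.1% as deposited, 47.8% with median of ratios, 48.2% with quantile normalization and 44.6% after the GC correction. Against ventral skin the share was 46.8%, and it was 56.8% without ventral refractory telogen replicate 1 and 37.4% without replicate 2. Ventral catagen replicate 1 is ventral by its title and source name but carries a location tag of the ear, and without it 4993 genes differed from ventral skin. The dorsal change lay beyond both other changes in its own direction for 25.7% of all genes tested (25% after the GC correction) and for 55.4% of those called at 2-fold or more (52.8%), a choice by the dorsal change that favours such differences. These interactions share the dorsal libraries, so that the domains are given side by side.

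The fall of cell cycle genes was found in each domain, with medians of -2.06 in dorsal, -1.59 in ventral and -1.65 in chin skin, and the dorsal change was lower for 13 of 40 genes than the ventral one and for 20 than that of the chin. Pigment genes had medians of -2.98, -2.58 and -2.41, and the dorsal change was lower for 6 of 15 genes than in ventral skin and for 12 than in the chin. After the GC correction 12 and 15 of the cell cycle genes and 4 and 11 of the pigment genes were lower. For adipocyte and collagen genes the dorsal median was below 0 and both others above it. The adipocyte list had medians of -0.49 in dorsal skin, 1.54 in ventral skin and 1.55 in the chin, and 18 and 20 of 27 members were lower in the dorsal change (20 and 22 after the correction). For skeletal muscle the medians were 0.26, 1.60 and 2.20, all above 0, with 23 and 28 of 30 members lower in the dorsal change (22 and 27 after the correction). Without ventral catagen replicate 1 the number lower than in ventral skin was 17. The medians for dermal collagens and elastic fibres were -0.25, 1.02 and 1.27, with 19 and 22 of 26 members lower and none higher (20 and 22 lower, 1 and 2 higher after the correction). The macrophage list had medians of -0.10, 1.27 and 1.97 over 24 genes, and 15 and 22 were lower in the dorsal change (17 and 20 after the correction). Its dorsal median lay near the -0.09 of all genes tested in dorsal skin, and it was -0.03 after the GC correction. Inner root sheath genes differed from the chin in all 16 members, all of them higher in the dorsal change in both versions, with medians of -0.08, -0.52 in ventral skin and -1.98 in the chin. The dermal papilla list had medians of -0.75 in dorsal and -0.03 in ventral skin over 22 genes, and of -0.69 in dorsal skin and 0.14 in the chin over the 23 genes tested there.

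Single genes with the largest differences were named by the same rule. Against ventral skin Krt80 led with a difference of 5.83 (SE 0.51, adjusted p = 1.28e-09), since it was at 61.4 and 51.9 FPKM in ventral catagen and at a mean of 0.55 FPKM in dorsal catagen. The 2 ventral refractory libraries lay far apart, at 134 and 22.6 FPKM for Krt80, and the difference was 7.09 without the first and 4.57 without the second. Lars2 followed with 5.45 (SE 0.38), from 8431 and 8920.3 FPKM to 2753 and 6934 FPKM in ventral skin. Mup19 and Mup11, major urinary proteins of a family of near-identical copies, had the largest differences in the other direction, -7.59 and -6.77. Mup11 was at 0.34 and 29.9 FPKM in the ventral catagen libraries, and its difference was -4.51 without replicate 1 of them. Mup19 went from a mean of 12.8 to 0.87 FPKM in dorsal skin and from 0.845 to 43.1 FPKM in ventral skin. Against the chin Apoc4, an apolipoprotein, had the lowest difference, -6.29 (SE 0.46, adjusted p = 1.1e-11): it went from a mean of 24.7 to 0.30 FPKM in dorsal skin and from 2.78 to 14.8 FPKM in the chin. Thrsp, a regulator of fat synthesis, had a difference of -5.55 (SE 0.36), from 70.7 to 7.03 FPKM in dorsal skin and from 22.1 to 120.0 FPKM in the chin.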

How the data were processed

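The authors sequenced SMART-seq2 libraries as paired-end reads, mapped them to mm10, estimated gene levels on GENCODE vM8 with RSEM 1.2.25 and deposited FPKM, a value scaled to transcript length and library size that keeps no counts. Their methods state a batch-effect correction without naming batches, so that no value within a batch could be given, and the use of edgeR on FPKM. Stages and domains were taken from the sample titles, and for 1 ventral catagen library the location tag names the ear instead. No column of the skin table was without a sample. Fragments were not stated to be counted by strand, so that overlapping and antisense genes cannot be told apart.

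Levels were taken as log2(FPKM + 1), so that changes of low genes are understated. A linear model of 43 skin libraries in 18 groups was fitted with limma 3.58.1 (R 4.3.3) using moderated variances that follow a trend on the mean level. A gene was tested where 2 or more of the libraries compared reached 0.5 FPKM. Tests were two-sided, the Benjamini-Hochberg adjustment ran over all genes tested, and the threshold was 0.05. Depth was estimated from the steps of the FPKM values, and replicates differed by more than counting noise. GC content came from GENCODE vM21 transcripts, and the GC correction (a lowess curve with a span of 0.3 on 16348 genes) was chosen after seeing the data. Of 46983 genes 46488 matched that annotation, and 27 symbols stored as dates were restored. On simulated data 50 of 50 genes lowered by 2 on the log2 scale, 42 of 50 lowered by 1, 44 of 50 raised by 1 and 46 of 50 raised by 2 were called, with 14 of 16214 unchanged genes. The simulated noise was independent between genes and libraries. It held no shift shared by a library, so that it does not cover the GC deviation of the catagen libraries. Alternatives were another pseudocount, filters, scalings, fits, libraries left out and the replicate number as a block. Tables and figures were made with Python 3.11.15, pandas 2.3.3, numpy 2.4.6 and matplotlib 3.10.9.

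The comparison and the gene lists were chosen with earlier results of these data known. Lists are described by counts and medians, without a test of the list. Genes were named by a rule: the 10 largest rises and 10 largest falls among called protein-coding genes whose libraries did not overlap and whose higher mean was at least 5 FPKM, leaving out clone names and keratin-associated proteins, then the 2 largest changes each way in each list, members of the signalling, stem cell and papilla lists, the cell type markers, and the 2 largest differences each way from ventral and chin skin. Other genes named, such as Kit, Krt2, Krt10, Krt14, Mitf, Plk1, Pttg1 and Sox10, were chosen after their values were seen.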

Additional observations from a re-analysis of the deposited data

Results flagged for a closer look

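Of the 20 genes named for the largest rises and falls, 15 had a dorsal change beyond those of both ventral and chin skin in its own direction (limma, adjusted p under 0.05 for both differences), and 12 of the 15 still did after the GC correction. The 20 genes were chosen by the size of the dorsal change, which favours such differences, so that the 15 are a description. Over all genes tested 25.7% met the same condition, and over the 3205 genes called at 2-fold or more 55.4%. With a ventral library left out 13 to 15 of the 15 remained past the threshold against ventral skin, and Tyrp1 and Rps12 were those lost. Among the 9 that rose, the dorsal change exceeded the ventral one by 5.83 for Krt80, 5.45 for Lars2, 4.94 for Lypla2, 4.78 for Rps12, 4.05 for Styx, 3.28 for Sprr4, 3.05 for Sept5, 2.06 for Cd74 and 1.93 for Nrtn on the log2(FPKM + 1) scale. For Rps12 and Styx, listed at 0 in dorsal catagen, the size depends on the pseudocount. Krt80 had changes of -0.03 in ventral skin, where the refractory libraries were at 134 and 22.6 FPKM, and -0.01 in the chin, neither of which was tested on its own, while Cd74 rose by 3.56 in dorsal skin against changes of 1.5 and 2.44. After the GC correction the difference for Nrtn was -0.06 against ventral skin (adjusted p = 0.902) and that for Cd74 against the chin had an adjusted p of 0.0545.

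Among the 6 that fell, the difference from the ventral change was -5.18 for Apoc4, -2.52 for Slc24a5, -2.43 for Mlana, -1.86 for Dct, -1.86 for Syt4 and -1.01 for Tyrp1. The pigment genes Mlana, Dct, Tyrp1 and Slc24a5 had lower fitted changes in each domain, with ventral changes of -4.92, -4.46, -4.72 and -2.58 and chin changes of -4.38, -3.23, -4.35 and -2.98. After the GC correction the adjusted p of the difference for Tyrp1 from ventral skin was 0.0735. Apoc4 differed in sign, with a ventral change of 0.87 and a chin change of 1.98.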

How the results depend on the processing

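The number of genes changed in dorsal skin was 9371 and lay between 6722 and 10475 over the other pseudocount, filters, scalings, fits and the GC correction, and between 7489 and 7745 when each library was left out in turn. A minimum change of 2-fold left 3205 of these genes, and 162 of the 262 named genes and list members that were called, of which 223 to 229 remained called with a library left out and 215 after the GC correction. Of the 36 lists with a median of at least 0.1 in size, 35 to 36 kept its sign with a library left out and 32 after the GC correction. Genes that differed from ventral skin numbered 4933 to 6621 and from the chin 7520 to 8648 with a library left out. With the replicate number as a block (replicate block), 9355 genes changed, and 9800 against 10009 without it when only the 4 libraries were fitted, with 5904 and 8677 genes that differed from ventral skin and the chin. The replicate numbers share only a number, since the deviations of same-numbered libraries correlated at 0.0584.

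Turns of direction were counted only for named genes called as deposited or under the alternative. Among these, no alternative other than the GC correction turned a direction. After it the change was 0.03 for Postn, 0.04 for Bmpr2, -0.13 for Ascl2, 0.04 for Spred1, 0.12 for mt-Atp6, -0.67 for Sox18, 0.15 for Sostdc1, 0.39 for Acvr2a, -0.05 for Smad7, -0.80 for Wnt6, -0.04 for Wnt10a, -0.20 for Sfrp5, -0.17 for Kremen2, 0.26 for Fzd6, -0.42 for Fzd9, -0.01 for Smo, -0.07 for Gli2, -0.14 for Fgfr3, 0.00 for Etv4 and 0.24 for Smad2. The median of the WNT ligands became -0.34 and that of the WNT antagonists -0.17, which it also was at a minimum of 5 FPKM. The construction of the correction ties these turns to GC content, and whether it removes biology too was not tested. Depth limits genes near the filter most in catagen, which had fewer fragments than refractory telogen.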

Other observations

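Further gene lists had called members in both directions, beside 25.1% of all genes that rose and 32.0% that fell (29.5% and 24.6% after the GC correction). Of 17 circadian clock genes 9 rose and 3 fell (9 and 1 after the GC correction), with Nr1d1, a repressor of the clock, going from 4.34 and 4.47 to 14.6 and 11.2 FPKM (a rise of 1.35, SE 0.19) and Per3 from 17.8 and 17.2 to 5.0 and 4.9 FPKM (a change of -1.63, SE 0.14). The labels used here give no time of day. Of 33 apoptosis genes 12 rose and 9 fell (9 and 5 after the correction). Bcl2l1, which encodes the survival factor BCL-XL, rose from 11.3 and 12.2 to 74.3 and 80.6 FPKM (2.62, SE 0.18), and the other dorsal stages held 56.0 to 89.3 FPKM, so that catagen was its low stage. Bbc3, the death factor PUMA, was at 0.35 and 0.24 against 3.18 and 4.93 FPKM, a rise of 1.94 (SE 0.27) that was 0.33 (adjusted p = 0.28) after the correction. Apaf1, of the apoptosome, fell from 5.63 and 5.24 to 2.0 and 2.24 FPKM (-1.04, SE 0.30).

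Cell junction and matrix lists were mixed. Of 14 desmosome and adhesion genes 6 rose and 3 fell (9 and 3 after the correction): Jup, plakoglobin, went from 31.4 and 35.5 to 208 and 210.2 FPKM (2.61, SE 0.13), whereas Dsc2, a desmocollin, fell from 37.4 and 35.9 to 6.52 and 5.87 FPKM (-2.39, SE 0.18). Of 15 basement membrane genes 7 rose and 3 fell (8 and 4 after the correction), and Col17a1, a hemidesmosome collagen of basal and stem cells, rose from 17.3 and 18.4 to 67.1 and 66.5 FPKM (1.85, SE 0.16). In the Notch list 4 rose and 4 fell among 13 (4 and 5 after the correction). Jag1, a ligand, fell from 134 and 125 to 36.4 and 36.0 FPKM (-1.81, SE 0.18), and Nrarp, a feedback target of Notch, rose from 2.34 and 3.71 to 32.6 and 24.8 FPKM (2.89, SE 0.22). Among 14 hormone and vitamin receptors 7 rose and 3 fell (7 and 2 after the correction), with Rarg, the retinoic acid receptor of epidermis, going from 3.29 and 4.24 to 46.05 and 46.03 FPKM (3.31, SE 0.18), within the 32.9 to 52.0 FPKM of the other stages. The remaining lists gave, higher and lower, 5 and 3 of 17 matrix-degrading enzymes (7 and 4 after the correction), 6 and 3 of 14 vessel genes (3 and none after the correction), 3 and 1 of 9 Schwann cell genes (3 and 1 after the correction), 2 and 2 of 6 red blood cell genes (2 and 2 after the correction) and 2 and 3 of 9 smooth muscle genes (2 and 4 after the correction). They also gave 5 and 3 of 11 neutrophil genes (7 and 3 after the correction), 4 and 5 of 11 IGF genes (4 and 6 after the correction), 4 and 10 of 26 collagens and elastic fibre genes (4 and 10 after the correction) and 15 and 27 of 86 ribosomal protein genes (18 and 21 after the correction). The ribosomal counts were 9 and 23 without catagen replicate 1 and 9 and 24 without refractory replicate 1.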
